A study of Mus musculus with 4 samples.

Results

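A group of 9 collagen genes outside the fibrillar and type IV classes was examined in mouse periosteal cells: *Col6a1*, *Col6a2*, *Col6a3*, *Col8a1*, *Col12a1*, *Col14a1*, *Col15a1*, *Col16a1* and *Col18a1*. They were chosen by gene symbol, and all 9 were found among the 45802 symbols of the deposited table, each with a value in all 4 libraries. The 4 libraries were total RNA of cultured cells from the femurs and tibias of male mice aged 9 to 10 weeks. Every animal had received tamoxifen (150 mg/kg per day for 5 days) 14 days before the cells were isolated. In these Pdgfrα-mTmG animals, CreER under the *Pdgfra* promoter switches a membrane tdTomato to a membrane GFP. PDGFRα reporter+ cells were sorted as GFP+ and PDGFRα reporter- cells as tdTomato+, and both were CD31-, CD45- and Ter119-. The reporter therefore records promoter activity at the time of tamoxifen and in descendants, not the transcript at sorting. All cells were expanded for 1 passage with 15% FBS and 10 ng/mL bFGF before sorting. Cells of several animals were pooled for each population, 3 to 6 according to the labels and a higher range according to the methods. Each population had 2 libraries, numbered 2 and 3 in the table, and what this number marks is not stated.

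Collagens are trimers whose chains are wound together where glycine recurs at regular intervals, a repeat written Gly-X-Y. The fibrillar types build the load-bearing fibers of bone and periosteum, and the 9 genes examined here encode chains that decorate or link these fibers or lie beneath cells. Type VI collagen forms beaded filaments around cells from 3 different chains, encoded by *Col6a1*, *Col6a2* and *Col6a3*. Types XII, XIV and XVI (*Col12a1*, *Col14a1*, *Col16a1*) are fibril-associated collagens with interrupted triple helices, type VIII (*Col8a1*) is a short-chain network former, and types XV and XVIII (*Col15a1*, *Col18a1*) are multiplexins of basement membrane zones. Type XII is well known in periosteum and tendon, and the C-terminal end of type XVIII is released as endostatin.

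The proportion of triple helix separates the members. In the longest coding transcript of each gene in GENCODE M21, runs of at least 5 Gly-X-Y triplets made up 62.1% of the residues encoded by *Col16a1* and 58.9% of those encoded by *Col8a1*. They made up 8.1% for *Col12a1*, 10.0% for *Col6a3* and 13.8% for *Col14a1*, whose chains consist mostly of globular modules. The longest uninterrupted run was 87 triplets in both *Col6a1* and *Col6a2*. It was 32 triplets in both *Col12a1* and *Col14a1* and 30 triplets in both multiplexins. The encoded proteins of *Col12a1* and *Col14a1* were identical at 48.7% of 1710 aligned residues, and those of *Col15a1* and *Col18a1* at 49.6% of 1145. Within the last 180 residues of the multiplexins, where endostatin lies, identity was 63.8%.

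*Col6a1* and *Col6a2* are neighbors on the minus strand of chromosome 10, at 76708792 to 76726168 and at 76595762 to 76623630, with 85.2 kb and 1 annotated gene between them. *Col18a1* lies on the same chromosome (77052178 to 77166548, minus strand). *Col6a3* is on chromosome 1 (90765923 to 90843971, minus strand), *Col8a1* on chromosome 16 (57624258 to 57754737, minus strand) and *Col12a1* on chromosome 9 (79598991 to 79718831, minus strand). *Col14a1* is on chromosome 15 (55307750 to 55520803, plus strand). *Col15a1* (47208161 to 47313167) and *Col16a1* (130047840 to 130099283) are both on the plus strand of chromosome 4. These are GENCODE M21 positions on GRCm38, the build the submitters list.

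Promoter windows from RefSeq (GRCm38.p6) were found for 7 of the 9 genes. The 250 bases before the start site are shown for 3 of them, whose levels behaved differently. *Col15a1* differed most between libraries, *Col8a1* differed in the opposite direction between the library numbers, and *Col16a1* differed little. The range of *Col6a3*, for which a window was also found, was narrower (0.29 on the log2 scale, compared with 0.44 for *Col16a1*). The windows shown are chr4:47207762-47208011 (plus strand), chr16:57754738-57754987 (minus strand) and chr4:130047590-130047839 (plus strand), written 5′ to 3′. Capitals mark GGGCGG or CCAAT on either strand.
Col15a1: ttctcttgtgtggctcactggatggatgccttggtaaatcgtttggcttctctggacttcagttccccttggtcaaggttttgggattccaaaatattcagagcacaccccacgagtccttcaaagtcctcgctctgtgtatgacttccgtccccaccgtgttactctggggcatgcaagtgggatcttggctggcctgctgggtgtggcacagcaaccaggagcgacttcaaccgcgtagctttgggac
Col8a1: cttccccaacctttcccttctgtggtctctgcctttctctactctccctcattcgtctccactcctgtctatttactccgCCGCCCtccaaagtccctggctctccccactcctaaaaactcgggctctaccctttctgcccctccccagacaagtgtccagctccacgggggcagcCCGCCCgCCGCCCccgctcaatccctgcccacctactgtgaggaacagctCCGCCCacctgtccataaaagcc
Col16a1: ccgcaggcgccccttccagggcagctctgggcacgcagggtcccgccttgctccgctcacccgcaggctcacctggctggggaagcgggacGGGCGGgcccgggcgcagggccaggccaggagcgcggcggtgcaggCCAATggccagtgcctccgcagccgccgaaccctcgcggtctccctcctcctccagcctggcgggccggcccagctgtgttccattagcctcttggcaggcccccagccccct

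The *Col15a1* window held no GC box (the first of these motifs) and no CCAAT box, and had a GC content of 53.6%. The *Col8a1* window held 4 GC boxes at a GC content of 60.8%. The *Col16a1* window had a GC content of 75.6%, with 1 GC box and 1 CCAAT box. The window of *Col6a3*, the gene with the narrowest range, is not shown. Like that of *Col15a1*, it held no GC box and no CCAAT box, at a GC content of 57.2%. Of the 9 windows of the members, 5 held a GC box and 2 a CCAAT box. A relation between these motifs and the levels was not tested. Over 32851 windows of the same length, the GC box was found in 32.7% and the CCAAT box in 33.8%, and the median GC content was 52.4%. The TATA box (TATAAA, in 12.4% of all windows) was in none of the 9 windows of the members, nor was the E-box CACGTG, which 6.02% of all windows held. The AP-1 motif TGACTCA was in the window of *Col6a1* and in 4.46% of all windows. All motifs were searched on both strands.

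Values are the authors' quantile-normalized log2 expression values. They had a median of 1.48 and a maximum of 11.73 in every library. The linear unit is not given, and the depth is unknown. The first percentile of the values, which was −7.12 to −6.03 for genes with a transcript of 500 to 1000 nt, was −8.96 to −8.66 for 8000 to 16000 nt, so that the scale depends on length. Levels of different genes are for this reason given as percentiles among the genes with a value, without ranking genes against each other. Libraries within a population are the replicates here. The labels do not say that they came from separate animals, so that the tests measure the spread between these libraries. Bulk values also cannot tell fewer cells with a transcript from less transcript per cell.

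The type VI genes lay between percentiles 96.6 and 99.5 in every library, and no difference between the populations was detected for any of them. *Col6a1* had log2 values of 8.16 and 7.40 in PDGFRα reporter+ libraries 2 and 3 and of 7.88 and 7.77 in PDGFRα reporter- libraries 2 and 3. The reporter+ values enclosed both reporter- values. Its percentile was between 99.0 and 99.5 in all libraries. *Col6a2* had 6.64 and 5.63 in reporter+ and 6.35 and 6.02 in reporter- libraries, and again the reporter+ values enclosed the others. *Col6a3*, which encodes the largest chain, had 6.92 and 6.63 in reporter+ and 6.66 and 6.71 in reporter- libraries. It had the narrowest range of the 9 genes, 0.29 on the log2 scale.

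The log2 fold change (mean of reporter+ minus mean of reporter- libraries) was −0.05 (SE 0.32, 95% interval −0.90 to 0.81) for *Col6a1*. It was −0.05 (SE 0.38, interval −1.07 to 0.97) for *Col6a2* and 0.08 (SE 0.19, interval −0.41 to 0.58) for *Col6a3*. The 3 genes had the same sign within each library number, and that sign was not the same for both numbers. Within number 2, reporter+ exceeded reporter- by 0.28, 0.29 and 0.25 for *Col6a1*, *Col6a2* and *Col6a3*. Within number 3, the differences were −0.37, −0.39 and −0.09. Within a library, the log2 value of *Col6a1* minus that of *Col6a2*, whose size depends on the scale and is not read as a ratio of transcripts, was 1.52 and 1.53 in the number 2 libraries and 1.77 and 1.75 in the number 3 libraries. It varied over 0.25, compared with 0.76 for *Col6a1* and 1.01 for *Col6a2* themselves. This was not so for the pairs with *Col6a3*, whose own range was 0.29. *Col6a1* minus *Col6a3* varied over 0.47 and *Col6a2* minus *Col6a3* over 0.72.

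The fibril-associated genes did not share a direction. *Col14a1*, which encodes a collagen known to regulate fibril diameter, had log2 values of 1.40 and 2.43 in reporter+ libraries 2 and 3 and of 0.05 and 1.60 in reporter- libraries 2 and 3. The populations overlapped, since reporter+ library 2 lay below reporter- library 3. Within each number the reporter+ library was the higher, by 1.35 (2.55-fold) in number 2 and by 0.83 (1.78-fold) in number 3. The log2 fold change was 1.09 (SE 0.66, interval −0.65 to 2.84), the highest of the 9 genes, at a percentile of 34.4 to 65.5.

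*Col12a1* had 6.28 and 5.38 in reporter+ and 6.11 and 4.52 in reporter- libraries. Both number 3 libraries lay below both number 2 libraries, and the populations overlapped. Reporter+ was higher by 0.17 within number 2 and by 0.86 (1.82-fold) within number 3, with a log2 fold change of 0.52 (SE 0.62, interval −1.15 to 2.18). *Col16a1*, the member with the largest share of Gly-X-Y repeat, had 5.79 and 5.35 in reporter+ and 5.67 and 5.76 in reporter- libraries. Its difference was 0.11 within number 2 and −0.40 within number 3, and its log2 fold change was −0.14 (SE 0.20, interval −0.68 to 0.39).

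*Col8a1*, a network-forming collagen made by vascular and mesenchymal cells, had 5.84 and 5.16 in reporter+ and 5.98 and 4.59 in reporter- libraries. The reporter- values enclosed the reporter+ values. The difference was −0.14 within number 2 and 0.56 (1.48-fold) within number 3. The log2 fold change was 0.21 (SE 0.54, interval −1.22 to 1.64).

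**Figure D1:**
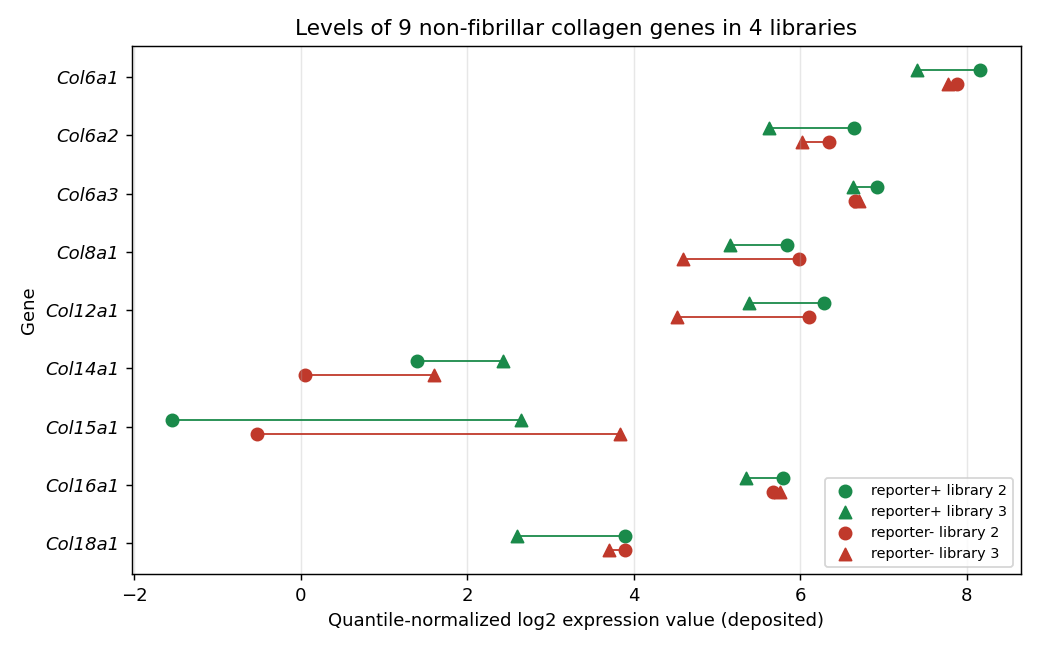
Deposited quantile-normalized log2 values (x axis) of the 9 genes (y axis) in the 2 PDGFRα reporter+ libraries (green) and the 2 PDGFRα reporter- libraries (red), with circles for number 2, triangles for number 3 and a line joining the libraries of a population. *Col15a1* ran from −1.54 to 3.84, and *Col6a3* stayed within 0.29.

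The multiplexin genes were both lower on average in reporter+ cells, and neither difference passed the test. *Col15a1* had log2 values of −1.54 and 2.65 in reporter+ libraries 2 and 3 and of −0.52 and 3.84 in reporter- libraries 2 and 3. Both number 2 values were below 0 and both number 3 values well above it, so that the populations overlapped widely. Its percentile was 24.7 and 30.3 in the number 2 libraries and 69.1 and 86.0 in the number 3 libraries. Within each number the reporter+ library was the lower by a similar amount, 2.03-fold in number 2 and 2.29-fold in number 3. The unpaired log2 fold change was −1.11 with an SE of 2.03 (interval −6.53 to 4.31), the widest of the 9 genes. The paper lists *Col15a1* among its significantly lower genes in reporter+ cells, whereas the unpaired limma test used here did not call it.

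*Col18a1* had 3.89 and 2.60 in reporter+ and 3.90 and 3.70 in reporter- libraries. The other values lay together and reporter+ library 3 lay below them, so that the log2 fold change of −0.55 (SE 0.46, interval −1.77 to 0.67) came from 1 library. The difference was −0.0026 within number 2 and −1.10 (2.14-fold) within number 3, and without reporter+ library 3 the log2 fold change was 0.10. RefSeq lists 2 promoter windows for *Col18a1*, and the table gives 1 value per symbol, so that its long and short forms could not be separated. *Slc19a1*, on the opposite strand, shares 8825 bases with *Col18a1*, and whether the counting used strand is not stated. *Slc19a1* had a log2 fold change of 0.13, with −0.05 within number 3.

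**Figure D2:**
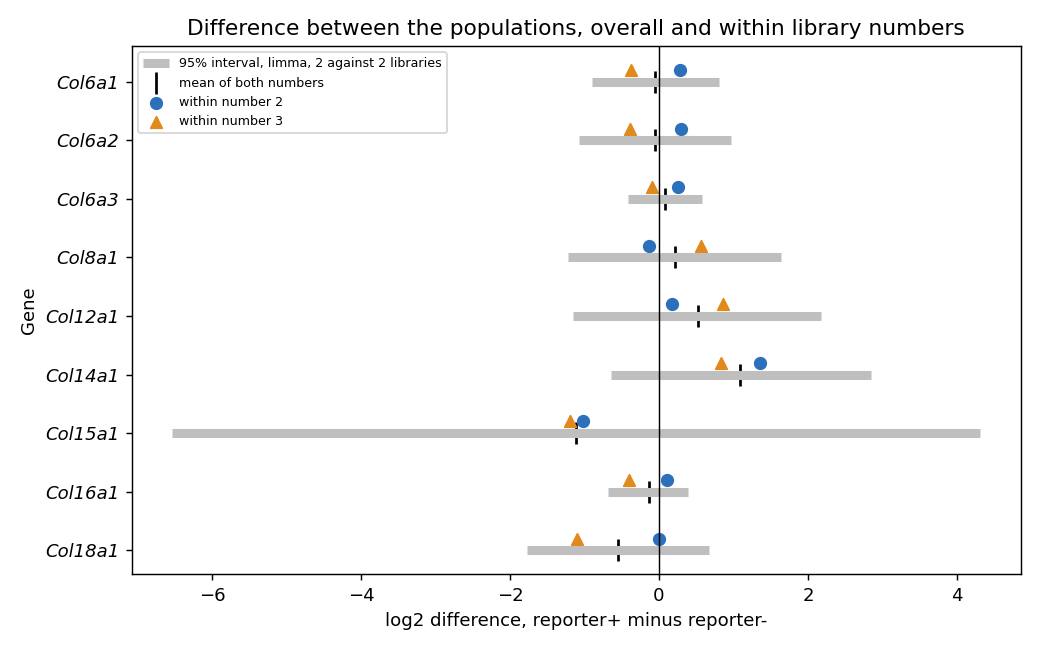
Difference in log2 value between PDGFRα reporter+ and PDGFRα reporter- cells (x axis) for the 9 genes (y axis), within number 2 (circles), within number 3 (triangles) and as the mean of both (black ticks), with the 95% interval of limma (gray bars). All 9 intervals include 0; *Col14a1* lay above 0 and *Col15a1* below 0 in both numbers.

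Across the 9 genes, 4 had a log2 fold change above 0 and 5 below 0, with a median of −0.05. With limma, 0 members passed at an adjusted p below 0.05 (adjusted p = 1 for each), beside 0.0% of the 14415 genes measured in every library. At an unadjusted p under 0.05 the count was 0 of 9, beside 131 of all genes (0.909%). The libraries of the populations overlapped for all 9 genes, whereas they did not overlap for 15.7% of all genes tested. The sign of the difference was opposite in numbers 2 and 3 for 5 of the 9 genes, close to the 53.1% over all genes. The median size of the log2 fold change was 0.21, compared with 0.09 for all genes whose mean log2 level was 0 or more.

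Differences between the library numbers were larger than differences between the populations for all 9 genes, as they were for 75.7% of all genes. The number 3 and number 2 libraries did not overlap for 7 of the 9 genes, compared with 65.2% of all genes. In a limma model with population and number, 2 of the 9 genes were higher in number 3 (11.5% of all genes) and 4 were lower (9.79% of all genes) at an adjusted p under 0.05. These calls rest on moderating the variance with a trend on the mean. Without the trend 0 of the 9 genes and 0 of all genes passed. In a model of the number alone 3 of the 9 did (*Col8a1*, *Col12a1* and *Col15a1*), beside 2208 of the 14415 genes tested.

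*Col15a1* had the largest difference between numbers, 4.28 on the log2 scale (SE 0.19, limma adjusted p = 4.81e-06, 19.4-fold), at percentile 99.7 of all genes by size. It was 18.3-fold higher in number 3 than in number 2 in reporter+ cells and 20.6-fold higher in reporter- cells. *Col14a1* was also higher in number 3, by 1.03 in reporter+ and 1.55 in reporter- cells (limma adjusted p = 0.00207, and 0.147 in the model of the number alone). *Col12a1* was lower in number 3 by 1.86-fold in reporter+ and by 3.01-fold in reporter- cells (adjusted p = 0.00109). *Col8a1* was lower by 1.61-fold and 2.62-fold (adjusted p = 0.00267). For *Col12a1* and *Col8a1* the step between the numbers was thus larger in reporter- cells, although the difference of the steps (reporter- minus reporter+, −0.70 for each) could not be tested with 1 library in each combination.

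The opposite imbalance was seen for the type VI genes and *Col18a1*. *Col6a2* was lower in number 3, with differences of −1.01 in reporter+ and −0.33 in reporter- cells (limma adjusted p = 0.0207, and 0.0609 in the model of the number alone). *Col18a1* was also lower, with differences of −1.29 in reporter+ and −0.20 in reporter- cells (adjusted p = 0.0421, and 0.203 in the model of the number alone). *Col6a1* had differences of −0.76 and −0.11 (adjusted p = 0.121), *Col16a1* of −0.44 and 0.08 (adjusted p = 0.433) and *Col6a3* of −0.29 and 0.05 (adjusted p = 0.594). Reporter+ library 3 was the lowest of the 4 libraries for each of these 5 genes.

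**Figure D3:**
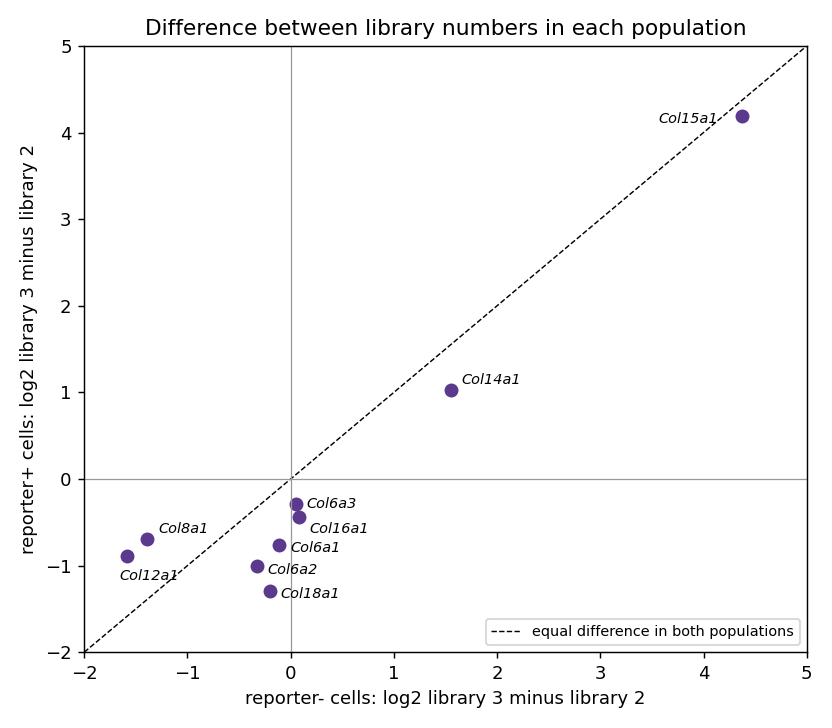
Difference in log2 value between libraries 3 and 2 in PDGFRα reporter- cells (x axis) and PDGFRα reporter+ cells (y axis), 1 point per gene, with a dashed line of equal differences. *Col15a1* lies close to the line at 4.37 and 4.19, and *Col6a1*, *Col6a2* and *Col18a1* lie below it.

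Other collagens were compared as lists. Of 18 further non-fibrillar collagen genes, 12 were measured in every library, 6 with a higher and 6 with a lower mean in reporter+ cells (median log2 fold change −0.09). By limma 0 passed at an adjusted p under 0.05, and 0 at an unadjusted p under 0.05. The mean log2 level was 0 or more for 3 of the 12. The partner chain of *Col8a1*, *Col8a2*, had values of −1.79 and −2.15 in reporter+ and −2.13 and −2.08 in reporter- libraries. The other type VI chains *Col6a4* and *Col6a5* had mean log2 levels of −6.19 and −3.79, and *Col6a6* had a value in the number 3 libraries alone. *Col28a1*, a further von Willebrand factor A domain collagen, had the same order of libraries as *Col15a1*. Its values were −2.57 and 2.06 in reporter+ and −1.52 and 3.05 in reporter- libraries, with reporter+ minus reporter- differences of −1.05 and −0.99 within the numbers and a difference of 4.60 between the numbers. It was picked out after its values were seen, and the paper lists it among its significantly lower genes in reporter+ cells.

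Among 11 fibrillar collagen genes, 5 were higher and 6 lower in reporter+ cells (median −0.06), and 0 passed at an adjusted or unadjusted p under 0.05. All 5 type IV genes measured in every library had a lower mean in reporter+ cells, with a median of −0.84. Of these, 2 did not overlap between populations, *Col4a5* and *Col4a6* (15.7% of all genes did not). The mean log2 level was 0 or more for 3 of the 5. *Col4a4* and *Col4a6* were very low, at mean log2 levels of −7.44 and −4.83. *Col4a5* had 0.17 and −0.37 in reporter+ and 0.71 and 0.78 in reporter- libraries (log2 fold change −0.84, SE 0.32). *Col4a1* and *Col4a2*, the main chains of basement membranes, differed by −0.98 and −0.83 within number 2 and by −0.30 and −0.25 within number 3, and were higher in number 3 by 2.27 and 1.83. None of the type IV genes passed, with an unadjusted p under 0.05 for 0 of 5.

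The populations overlapped for 9 of 12 genes of collagen receptors and not for the other 3, beside 15.7% of all genes without overlap. Of the 12, 5 had a higher and 7 a lower mean in reporter+ cells, and 0 had an adjusted or unadjusted p under 0.05. *Cspg4*, which encodes the type VI receptor NG2, had 3.32 and 0.84 in reporter+ and 3.74 and 1.90 in reporter- libraries. The reporter+ minus reporter- difference was −0.42 within number 2 and −1.06 within number 3. *Antxr1* and *Antxr2*, which encode anthrax toxin receptors that bind type VI collagen, had log2 fold changes of 0.00 and 0.18. The collagen-binding integrin genes *Itga1*, *Itga2*, *Itga10* and *Itga11* had log2 fold changes of 0.29, −0.27, −0.46 and −0.07, and their shared partner *Itgb1* had 0.01. Between numbers, *Itga11* differed by −2.89 (limma adjusted p = 5e-06) and *Itga10* by −2.60 (adjusted p = 0.000194), whereas *Itga2* differed by 2.44 (adjusted p = 0.000981). The endocytic receptor gene *Mrc2* (5.20 and 5.25 in reporter+, 5.54 and 5.52 in reporter- libraries) and the discoidin receptor gene *Ddr2* (6.04 and 6.13, 6.30 and 6.21) lay lower in reporter+ cells without overlap, with log2 fold changes of −0.30 and −0.17. *Lair1*, an inhibitory collagen receptor gene of immune cells, lay higher without overlap (−3.52 and −2.45 in reporter+, −4.52 and −3.95 in reporter- libraries), with a log2 fold change of 1.25 at a low level. The second discoidin receptor gene, *Ddr1*, had a log2 fold change of −0.22.

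Of 13 matrix partners, 4 were higher and 9 lower in reporter+ cells, and 0 had an adjusted p under 0.05 without a block. With the number as a block 1 was called, *Lum* (limma adjusted p = 0.0121), and without the variance trend this block gave 0 of all genes. At an unadjusted p under 0.05 the count was 3 (0.909% of all genes), and 3 lay higher and 1 lower without overlap (15.7% of all genes). *Dcn* encodes decorin, which binds type VI and type XIV collagen. It had 7.47 and 8.49 in reporter+ and 6.67 and 6.51 in reporter- libraries, a log2 fold change of 1.39 (SE 0.39). *Lum*, the gene of lumican, differed by 1.83 (SE 0.33), and *Comp*, the gene of a cartilage matrix protein that binds fibril-associated collagens, by 0.74 (SE 0.25). *Fn1* was lower without overlap (log2 fold change −0.54, SE 0.46). *Bgn*, whose product biglycan organizes type VI filaments, had −0.17, and *Tnxb*, whose product tenascin-X binds types XII and XIV, had −0.18. *Hspg2* and *Agrn*, which encode the basement membrane proteoglycans perlecan and agrin, had −0.33 and −0.06.

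Of 9 genes of enzymes that process collagens, 5 had a higher and 4 a lower mean in reporter+ cells (median 0.01). Of 13 folding and modification genes measured in every library, 11 had a higher and 2 a lower mean, with a median of 0.11, and 3 did not overlap, beside 49.1% of all genes with a higher mean and 15.7% without overlap. These were *P4ha1*, *P4hb* and *Fkbp10*, with log2 fold changes of 0.26, 0.12 and 0.05. In both lists 0 genes had an adjusted or unadjusted p under 0.05.

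**Figure D4:**
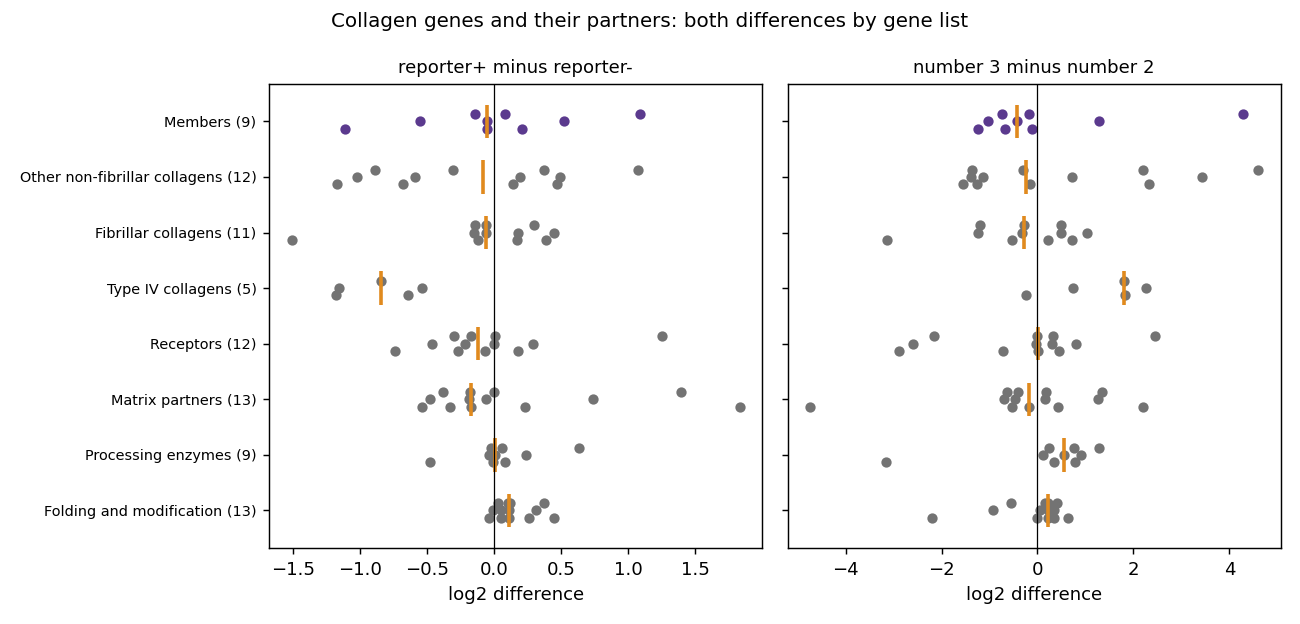
Log2 differences (x axes) between PDGFRα reporter+ and reporter- cells (left) and between numbers 3 and 2 (right) for the members and 7 lists of other collagens and partners (rows, with the number of genes in brackets), 1 point per gene and an orange bar at the median. The type IV genes have a median of −0.84 on the left and of 1.81 on the right. The median on the right is the value of *Col4a4*, whose mean log2 level was −7.44.

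The mean log2 level was 0 or more for all 10 markers of the labelled stromal type. This also held for 9 of 10 macrophage, 5 of 6 tendon, 4 of 5 periosteal and 1 of 10 endothelial markers. Most values of each library lay above 0 (median 1.48), so that this level alone does not identify a cell type. *Pdgfra* itself had a log2 fold change of 0.05. Several lists of markers of other cell types differed along with the populations or the numbers. By limma without a block, 0 genes of any list passed between the populations. With the number as a block, *Lum* of the stromal list (limma adjusted p = 0.0121) and the macrophage markers *C1qb* and *Tyrobp* (0.0437 each) passed. Without the variance trend the block gave 0 genes. The counts of the marker lists between the populations stand beside 15.7% of all genes without overlap and 0.909% with an unadjusted p under 0.05. All 10 macrophage markers had a higher mean in reporter+ cells, 8 of them without overlap (*C1qb*, a complement gene, with a log2 fold change of 1.48), and their summed level (log2 of the sum of linear values) was 7.91 and 8.14 in reporter+ and 6.55 and 7.50 in reporter- libraries. This is the direction of *Col14a1*. An unadjusted p under 0.05 (limma) was found for 5 of the 10. Both populations had been sorted as CD31- and CD45-. Of 10 mural cell markers, 3 had a higher and 7 a lower mean in reporter+ cells, 2 and 4 of them without overlap. *Kcnj8* and *Abcc9*, markers of pericytes, were the 2 higher ones without overlap, with log2 fold changes of 0.94 and 0.44. The 4 lower ones without overlap were *Myh11*, *Des*, *Mcam* and *Notch3*, with log2 fold changes from −2.39 (*Myh11*) to −0.36 (*Notch3*). Of these, only *Notch3* had a mean log2 level of 0 or more (1.09). The populations overlapped for the contractile genes *Acta2* and *Tagln* (mean log2 3.11 and 3.15), which had log2 fold changes of −1.27 and −1.17. The summed level of the list was 3.50 and 4.95 in reporter+ and 4.78 and 5.44 in reporter- libraries. Of the 9 endothelial markers measured in every library, 1 had a higher and 8 a lower mean, 4 of them lower without overlap and 4 with an unadjusted p under 0.05. The 4 without overlap were *Pecam1*, *Cdh5*, *Emcn* and *Kdr*, below 0 in every library, with log2 fold changes of −3.19, −4.26, −3.44 and −1.82. The summed level of the whole list of 10 was 2.03 and 1.88 in reporter+ and 2.41 and 2.76 in reporter- libraries. *Egfl7* had the highest value of this list in every library (mean log2 1.13) and a log2 fold change of −0.04. The sum is thus not the level of the 4 genes named before it. Within each number the mural and endothelial sums were lower in reporter+ cells, as was *Col15a1*, and the mural sum was also higher in number 3. The summed level of 6 tendon markers was 7.02 and 6.53 in the number 2 libraries and 4.34 and 4.42 in the number 3 libraries, the direction of *Col12a1* and *Col8a1*. By limma 5 of the 6 were called lower in number 3, beside 9.79% of all genes. *Tnmd* was not called and differed by 2.36. Of the 5 chondrocyte markers measured in every library, 3 (*Sox9*, *Acan* and *Col2a1*) were also called lower in number 3, beside 9.79% of all genes. Without the variance trend 0 of all genes were called between the numbers. *Comp* and *Hapln1* were not called, with differences of 0.18 and −0.73. The summed level of the 6 chondrocyte markers was 8.15 and 7.22 in the number 2 libraries and 7.99 and 7.57 in the number 3 libraries, so that it was not lower in number 3 in reporter- cells. Of 6 skeletal muscle markers, the 3 measured in every library (*Des*, *Acta1* and *Myh3*) lay lower in reporter+ cells without overlap, with log2 fold changes of −2.01 for *Acta1* and −3.57 for *Myh3*, the direction of *Col15a1* and *Col18a1*. The mean log2 levels of these 3 genes were below 0, and *Des* is also on the mural list. Of 7 Schwann and perineurial markers measured in every library, 2 had a higher and 5 a lower mean in reporter+ cells, 1 and 2 of them without overlap. Of 5 osteoblast markers so measured, 4 had a higher and 1 a lower mean, 2 of the higher ones without overlap. Of 5 periosteal markers, 4 had a higher and 1 a lower mean in reporter+ cells, and 1 had an unadjusted p under 0.05 (limma). *Ctsk* lay higher without overlap (log2 fold change 0.39). *Postn*, the lower one, had −1.13 and 2.04 in reporter+ and 0.14 and 3.04 in reporter- libraries, the same order of libraries as *Col15a1*. The part of these cell types in the results was not tested.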

How the data were processed

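Gene expression was measured by total RNA sequencing (stranded paired-end Illumina libraries) in 2 PDGFRα reporter+ and 2 PDGFRα reporter- libraries. The authors deposited quantile-normalized log2 values, 1 per gene symbol and library, with blanks for genes without signal. The submitters' processing notes list bcl2fastq 2.17.1.14, Partek 7.0 and GRCm38.p6. The aligner, counting and annotation are not given in the sources used here, and without the depth counting errors could not be given.

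Table headings give the population and a number (2 or 3), whereas labels number replicates 1 and 2. Columns were therefore assigned to a population only. The 14415 genes measured in each of the 4 libraries were fitted with limma 3.58.1 in R 4.3.3 (lmFit, eBayes with a variance trend, two-sided, without a block), and p-values were adjusted over all of them by Benjamini-Hochberg, with a threshold of 0.05. The difference between numbers came from a model with population and number. With 2 libraries against 2, an exact two-sided permutation test of 1 gene cannot give a p below 0.333, so none was used. Scripts were tested on simulated data. Alternatives were leaving out each library, a replicate block, no variance trend, a pseudocount of 1, a minimum mean of 0, genes with at least 3 values, centering on the median, and percentiles. Named genes of a list were up to 4 with the largest fold change among those whose mean log2 level was 0 or more and whose populations did not overlap, besides known partners of the members. Marker genes, *Lair1* and further collagen chains outside this rule were named after their values were seen. The members and lists were chosen with earlier results of these data known. Gly-X-Y runs and identities were computed from GENCODE M21 coding sequences with Biopython, in place of the planned RefSeq proteins. Summaries used Python 3.11.15 with pandas 2.3.3.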

Additional observations from a re-analysis of the deposited data

Results flagged for a closer look

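For 5 genes, the difference between PDGFRα reporter+ and PDGFRα reporter- cells had one sign in the number 2 libraries and the other in the number 3 libraries. With 1 library in each combination this was not tested, and the sign was opposite for 53.1% of all genes. The difference in number 3 less that in number 2 was −0.65 for *Col6a1*, −0.68 for *Col6a2*, −0.34 for *Col6a3* and −0.52 for *Col16a1*, which were higher in reporter+ cells in number 2 and lower in number 3. It was 0.70 for *Col8a1*, which was lower in number 2 and higher in number 3.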

How the results depend on the processing

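When 1 library at a time was omitted, the log2 fold change of *Col14a1* stayed above 0 (0.31 to 1.87). It ranged from −0.42 to 0.33 for *Col6a1*, −0.56 to 0.45 for *Col6a2*, −0.06 to 0.23 for *Col6a3*, −0.48 to 0.91 for *Col8a1*, −0.28 to 1.31 for *Col12a1*, −3.29 to 1.08 for *Col15a1*, −0.36 to 0.07 for *Col16a1* and −1.19 to 0.10 for *Col18a1*. Leaving out 1 library unbalances the numbers, and the lone library is assumed to vary like the other population. Under the other alternatives all 9 genes kept their sign, with −0.71 for *Col15a1* and 0.75 for *Col14a1* at a pseudocount of 1. In every setting with a test, 0 members were called between the populations; percentiles were compared without a test. With the number as a replicate block, 29 of all genes were called, among them *Lum* of the matrix partners (adjusted p = 0.0121) and the macrophage markers *C1qb* and *Tyrobp* (0.0437 each), and 0 members; without the variance trend 0 genes were called. At an unadjusted p under 0.05 the block gave 4 of the 9 members, beside 6.33% of all genes. These were *Col12a1* (interval 0.14 to 0.89), *Col14a1* (0.65 to 1.53), *Col15a1* (−1.53 to −0.69) and *Col18a1* (−1.05 to −0.05), with limma adjusted p of 0.436, 0.0744, 0.0642 and 0.695. Deviations of same-numbered libraries from their population means correlated at 0.681 across genes, and the labels do not say what the number marks. For number 3 against number 2, 6 members were called, beside 3065 of all genes (21.3%). In the model of the number alone 3 members were called, beside 2208 of all genes. In an alternative chosen after seeing the data, 0 members and 0 genes of all were called without the trend. The cause was not tested. Depth is unknown, so its effect on low values could not be given.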
